A study of Mus musculus with 18 samples.

Results

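Control skin of a mouse skin expansion study was followed from day 1 to day 4 after surgery in 5 single-cell mRNA libraries. The libraries were chosen by their labels as those of mice that received no expander (for day 1 round 2 the mRNA sample's title names hashing and the hashing sample's does not, and the label of the library type was followed): 2 libraries of day 1 (sequencing rounds 1 and 2), 2 of day 2 (rounds 1 and 2) and 1 of day 4 (round 1). After filtering they held 28452 of the 45488 cells of the series, and the other 17036 came from mice with a hydrogel expander. All mice of both arms were operated on: the back skin was cut near the tail, forceps opened a channel beneath the skin as far as the neck, and the cut was sutured. The control mice therefore carry the wound and the channel without the stretch. Strain, sex and age are not given in the sources used here, and skin without surgery was not analysed here, so day 1 is the reference for every change. The tissue was digested, living cells were sorted, and the control mice of a round were pooled in 1 tube. A library is thus a pool of mice, and a difference between 2 libraries of 1 day measures mice, tube and reaction together. In 4 of the 5 libraries the mice were marked before pooling, with 3 mice on day 1, 7 on day 2 and 4 on day 4, whereas the day 1 round 1 library carried no marks.

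A skin wound first draws neutrophils and monocytes from the blood, and resident macrophages of the dermis respond alongside them. Keratinocytes at the edge change their keratins, divide and migrate, and fibroblasts turn to making and cross-linking collagen. Interferon-gamma comes mainly from natural killer (NK) cells and T cells and acts through the receptor chains Ifngr1 and Ifngr2. Type I interferons (the Ifna genes and Ifnb1) act through Ifnar1 and Ifnar2, and both kinds induce antiviral proteins, guanylate-binding proteins, proteasome subunits for antigen presentation and the chemokines Cxcl9 and Cxcl10.

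Mice were told apart by hashtags, which are DNA barcodes on antibodies that bind to the surface of all cells of 1 mouse. Of the 6 barcodes, of 15 bases each, up to 4 were used in 1 control library. They are shown because every value per mouse rests on them, and any pair differs at 9 bases or more.
A0307: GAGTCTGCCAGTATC
A0308: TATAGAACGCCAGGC
A0309: TGCCTATGAAACAAG
A0310: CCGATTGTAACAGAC
A0311: GCTTACCGAATTAAC
A0312: CTGCAAATATAACGG
The barcodes marked immune cells far better than the others. In day 1 round 2, day 2 round 1, day 2 round 2 and day 4 round 1 in turn, 99.9%, 99.5%, 98.8% and 98.0% of the immune cells were given to a mouse, against 20.4%, 39.1%, 44.4% and 49.3% of the non-immune cells. The yield also differed among the non-immune classes. On day 1 it was 78.5% for suprabasal keratinocyte-like cells, 35.2% for basal keratinocyte-like cells and 15.9% for fibroblast-like cells, and on day 4 it was 91.4%, 48.8% and 64.7%. Shares of non-immune classes per mouse therefore follow the hashing as well as the skin, and each is given below beside the share in the whole library.

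The libraries held 5687 and 7956 cells on day 1, 2132 and 5604 on day 2 and 7073 on day 4, in the order of the rounds. The deposited barcodes carried between 17726739 and 75470722 unique molecular identifiers (UMIs, each standing for a captured transcript) per library, and the median per cell was 11436 in day 1 round 1 and between 6321.5 and 7963 in the others. No pair of libraries shared more than 18 cell barcodes. Clusters were named by marker genes, and 18 classes received a name. Unnamed cells were 8.77% and 16.6% of the day 1 libraries, 17.1% and 14.3% on day 2 and 13.2% on day 4. The largest unnamed clusters, of 1026 and 902 control cells, carried a few dermal papilla and fibroblast markers, and another of 506 carried T cell markers. Apart from small mixed clusters, unnamed cells count in the immune or non-immune totals. They entered no class and no test of a class. All 10 fibroblast markers, 11 macrophage markers and 11 dendritic cell markers were detected in a larger share of their own class than of the other cells. Free RNA in the droplets differed between libraries. Hbb-bs, a haemoglobin chain of red blood cells, stood at 0.47 and 206 CPM (the UMIs of a gene scaled to a common total) over all cells on day 1, 0.78 and 1240 on day 2 and 803 on day 4. The 10 fibroblast markers, summed in macrophage-like cells, stood at 4562 and 1183, 1046 and 340, and 1702 CPM.

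Among the cell classes, keratinocytes of the upper epidermis made up less of the non-immune cells after day 1, dendritic cells made up more of the immune cells on day 4, and NK cells made up less. Suprabasal keratinocyte-like cells, which express Krt1 and Krt10 and form the barrier, were 1.46% and 2.05% of the non-immune cells of the day 1 libraries, 0.427% and 0.697% on day 2 and 0.679% on day 4. Both day 1 libraries lay above the other 3. Over mice they were 9.80%, 13.9% and 4.01% of the assigned non-immune cells on day 1, between 0.692% and 2.78% with a median of 1.55% on day 2, and 0.728%, 1.01%, 1.60% and 1.56% on day 4. The mice of day 1 did not overlap with those of day 2 or day 4, which is the most extreme order possible, and the exact two-sided permutation p was 0.0167 (adjusted 0.3 over 18 classes) for day 2 and 0.0571 (adjusted 0.257) for day 4. Basal keratinocyte-like cells joined a cluster led by Krt24, Lhx2 and Krt15, genes of the hair follicle, and a cluster led by Sdr16c6, Apoc1 and Pdk4. At a clustering resolution of 2, a sebaceous gland cell-like cluster with 280 control cells stood apart. Sebaceous gland markers summed to 528 and 1005 CPM in the basal keratinocyte-like class on day 1, 383 and 817 on day 2 and 1382 on day 4. Its cells were 7.66% and 8.56% of the non-immune cells in the day 1 libraries, 3.49% and 9.79% on day 2 and 5.80% on day 4. Per mouse they went from 16.7% ± 5.71 (SD, n = 3) to 5.47% ± 2.55 (SD, n = 4) on day 4 without overlap (exact permutation p = 0.0571, adjusted 0.257). The mice of the 2 day 2 libraries, at 5.36% ± 1.96 (SD, n = 3) and 14.2% ± 5.39 (SD, n = 4), did not overlap either (exact permutation p = 0.0571, adjusted 0.343).

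Dendritic cell-like cells, which present antigen to T cells, were 30.4% and 31.6% of the immune cells on day 1, 30.1% and 33.4% on day 2 and 44.0% on day 4. Per mouse they were 37.5%, 27.6% and 31.0% on day 1, between 26.9% and 39.1% with a median of 31.5% on day 2, and 35.7%, 52.4%, 51.1% and 44.0% on day 4. Of the 4 mice of day 4, 3 lay above all mice of days 1 and 2, and the fourth lay among them. At a clustering resolution of 2, 715 control cells fell in a cluster with no clear lead between macrophage and dendritic cell markers, so the border of this class moves with the resolution. The difference from day 2 gave an exact permutation p of 0.0121 (adjusted 0.218), and that from day 1 an exact permutation p of 0.114 (adjusted 0.294). NK or innate lymphoid cell-like cells were 8.23% ± 3.03 (SD, n = 3) of the immune cells per mouse on day 1 and 3.13% ± 1.14 (SD, n = 4) on day 4, without overlap (exact permutation p = 0.0571, adjusted 0.257). The day 1 round 1 library, at 3.68%, lay near the 3.18% of day 4 and not near the 8.12% of the other day 1 library.

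Fibroblast-like cells, the largest class, gave opposite directions by the 2 counts. In whole libraries they were 72.7% and 47.9% of the non-immune cells on day 1, 51.4% and 31.8% on day 2 and 44.7% on day 4, whereas over assigned cells the mice averaged 32.3% ± 18.9 (SD, n = 3) on day 1 and 59.9% ± 10.5 (SD, n = 4) on day 4 (exact permutation p = 0.114, adjusted 0.294). The hashing yield of this class went from 15.9% to 64.7% over the same days. Mast cell-like cells were 7.48% ± 1.2 (SD, n = 3) of the immune cells in the mice of day 2 round 1 and 2.09% ± 0.300 (SD, n = 4) in those of day 2 round 2, without overlap (exact permutation p = 0.0571, adjusted 0.343). Dermal papilla cell-like cells, which sit at the base of the hair follicle, were 0.399% and 2.54% of the non-immune cells on day 1, 1.5% and 12.4% on day 2 and 6.03% on day 4, so the 2 libraries of 1 day stood as far apart as the days. No class passed an adjusted p of 0.05 for any pair of days or between the day 2 libraries. The smallest p the design allows is 0.0167 for day 2 against day 1 and 0.0571 for day 4 against day 1. The mice of day 1 are 1 library and those of day 4 another, so day and library cannot be told apart in these shares.

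**Figure D1:**
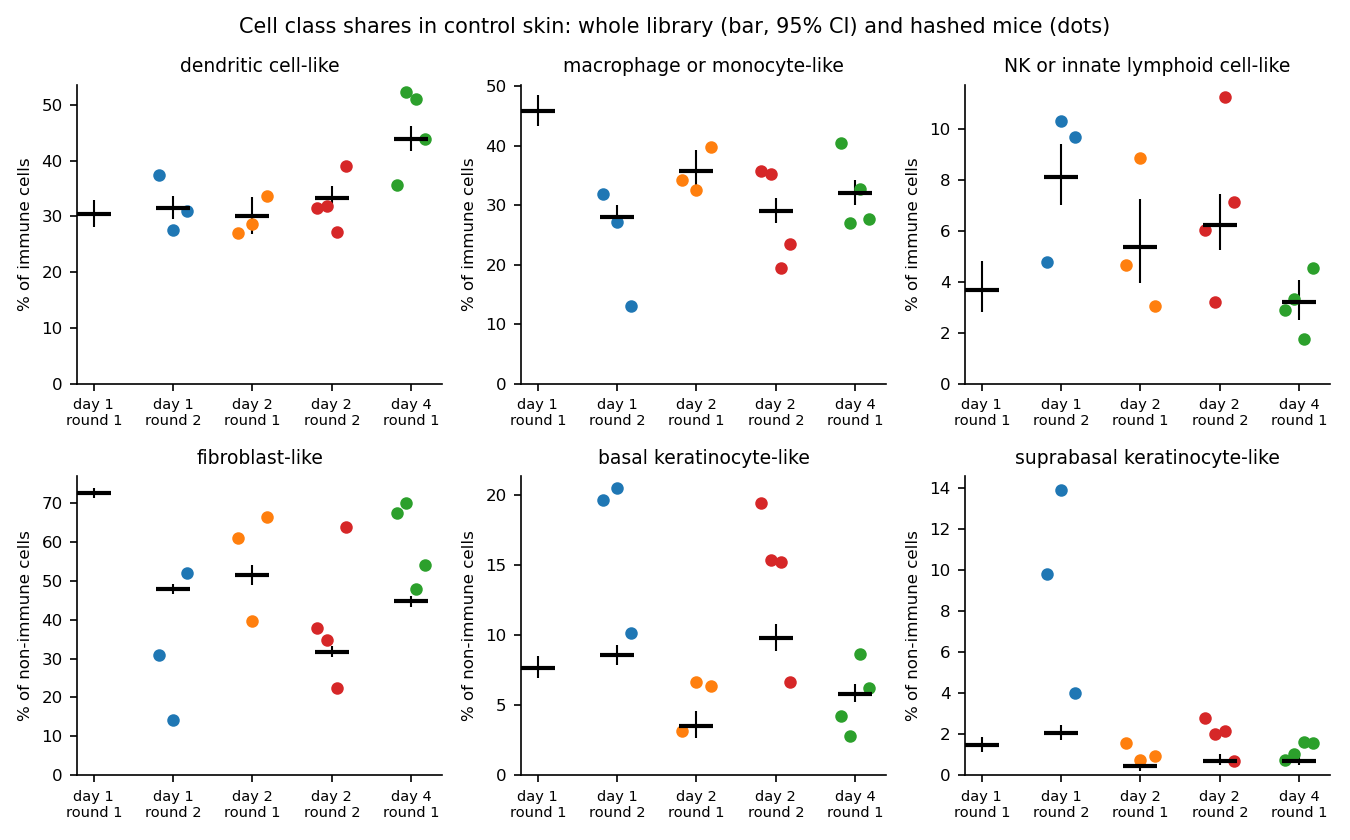
Share of 6 cell classes in the 5 control libraries, as a percentage of immune cells (upper row) or non-immune cells (lower row). Black bars are whole libraries with 95% Wilson intervals, which cover counting error only, and dots are hashed mice; the suprabasal dots of day 1 sit above all others, and the fibroblast dots and bars move in opposite directions from day 1 to day 4.

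In macrophage or monocyte-like cells more genes passed between the 2 libraries of day 2 than between days, over unequal numbers of mice. The class held 2 clusters, called here the recruited type and the resident type by their leading genes over all 10 libraries of the series. The recruited type is led by Chil3 and Ly6c2, known from monocytes, and by Arg1, but only 367 of its 2558 cells are control cells. Arg1 stayed between 0 and 2.95 CPM in the macrophage or monocyte-like cells of all 5 control libraries. The resident type is led by Folr2, Cd209f and C1q genes. The recruited type made up 4.01% and 4.02% of the class in the day 1 libraries, 3.85% and 46.6% on day 2 and 8.93% on day 4. Per mouse it made up 3.21%, 4.29% and 10.5% on day 1, 0%, 11.7% and 0.855% in day 2 round 1, 60%, 58.3%, 57.8% and 14.6% in day 2 round 2, and 4.53%, 6.16%, 19.4% and 14.5% on day 4. The 4 mice of day 2 round 2 all lay above the 3 of day 2 round 1, and 3 of them lay far above every other mouse.

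Single genes followed the same mice. Chil3, a chitinase-like protein of monocytes, was at 47.0 and 19.5 CPM in the 2 day 1 mice with at least 20 macrophage-like cells, at 0, 8.29 and 0 CPM in day 2 round 1, at 523, 616, 459 and 187 CPM in day 2 round 2, and at 6.23, 14.5, 74.7 and 41.9 CPM on day 4. The difference between the day 2 libraries was 7.15 on the log2 scale (SE 0.952, adjusted p = 0.000528, edgeR over mice). Cd209f, a lectin of resident dermal macrophages, went the other way, with 748, 630 and 597 CPM in round 1 and 68.7, 67.9, 19.6 and 179 CPM in round 2 (log2 difference -2.90, SE 0.491, adjusted p = 0.00168). Ly6c2, Inhba, Cxcl10 and Plac8 were higher in round 2 by 5.76, 5.75, 5.67 and 4.10 on the log2 scale, and Pla2g2d and Ccl24 lower by 5.09 and 2.33. Over the whole class, 1415 of 8062 genes (17.6%) differed between these mice of the same day at an adjusted p under 0.05, 640 higher (7.94%) and 775 lower (9.61%) in round 2, and for 27.9% of genes the mice did not overlap. For comparison, 329 (4.08%) differed between day 4 and day 1 and 307 (3.81%) between day 2 and day 1, while the mice did not overlap for 32.2% and 9.28%. Day 1 had 2 mice in these tests, and the day 2 libraries had 3 and 4. The counts and the shares without overlap depend on the number of mice too, so they do not rank the differences. Mice of 1 library share a tube and a reaction, so these p-values measure the spread within libraries and the batch was not tested.

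**Figure D2:**
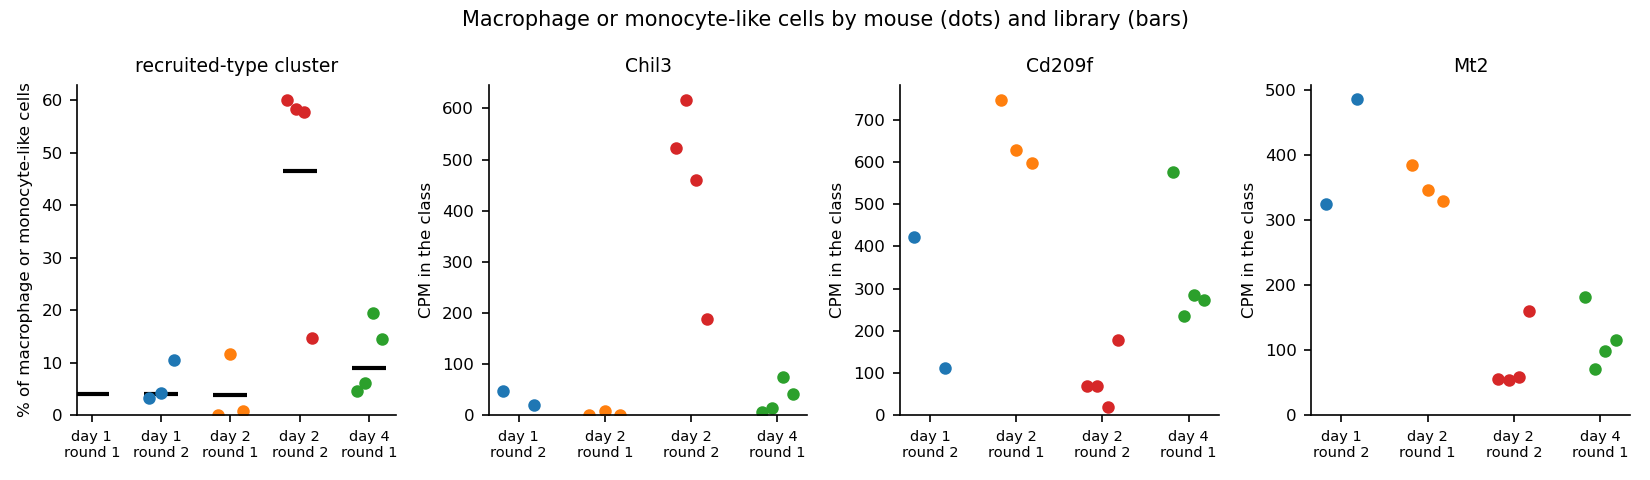
Left, the recruited-type cluster as a percentage of macrophage or monocyte-like cells per mouse (dots) and per library (bars). The other panels show Chil3, Cd209f and Mt2 in CPM per mouse with at least 20 cells; in 3 of the 4 mice of day 2 round 2 the recruited type exceeds 57%, Chil3 exceeds 450 CPM and Cd209f and Mt2 are under 69 CPM, while the fourth mouse of that library lies between.

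Over the 5 libraries, with day as a factor, 5 of 14468 genes (0.0346%) passed in fibroblast-like cells on day 2 and 3 (0.0207%) on day 4, all of them higher than on day 1, and the library values of the 2 days did not overlap for 43.3% and 77.7% of all genes (edgeR quasi-likelihood test, Benjamini-Hochberg adjusted p under 0.05). At an unadjusted p under 0.05 the counts were 1567 and 1390. Without day 2 round 1 more genes passed, but that fit leaves 1 library on day 2 and takes its spread from the day 1 pair alone. Ifi27l2a (ENSMUSG00000079017), an interferon-induced gene, was at 13 and 12.6 CPM on day 1, 81.2 and 74.6 on day 2 and 63.7 on day 4. The values of the days did not overlap, and the log2 rise was 2.60 (SE 0.17, adjusted p = 0.00448) on day 2 and 2.31 (SE 0.19, adjusted p = 0.0165) on day 4. The gene was concentrated in 1 of the fibroblast clusters, marked by Sult1e1, Agt, Sfrp4 and Pi16. That cluster held 58.6% and 70.7% of the class's Ifi27l2a UMIs on day 1, 95.8% and 93.1% on day 2 and 80.1% on day 4. Within it the gene rose from 172 and 246 CPM to 552 and 720 and then to 1078 CPM, unscaled. In no other fibroblast cluster did it exceed 32 CPM. The cluster itself was 6.14% and 4.48% of fibroblast-like cells on day 1, 15.2% and 9.44% on day 2 and 4.55% on day 4. On day 4, 10 cells held 52.2% of the class's Ifi27l2a UMIs. Without 14 cells that held the fat cell genes Adipoq or Plin1, the class stood at 40.8 CPM on day 4 in place of 63.3, unscaled, and that day's call was lost. The cluster values above include those cells.

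Plac8, which is also expressed by monocytes, was at 10.6 and 13.3 CPM on day 1, 48.6 and 57.3 on day 2 and 23.5 on day 4 (day 2: log2 2.15, SE 0.20, adjusted p = 0.0304). Between 93.8% and 97.7% of its UMIs lay in the same cluster in every library. There its CPM was 228 and 344, 334 and 580, and 477, unscaled, and days 1 and 2 overlapped. Myoc, myocilin, an extracellular glycoprotein, was at 8.37 and 6.61 CPM on day 1, 36.7 and 64.9 on day 2 and 9.81 on day 4 (day 2: log2 2.76, SE 0.29, adjusted p = 0.0369). Its level on day 4 lay just above the day 1 pair. Myoc is itself a leading gene of 1 fibroblast cluster, which was 1.71% and 2.40% of the class on day 1, 2.77% and 5.48% on day 2 and 2.56% on day 4. It held 11.2% and 29.6% of the Myoc UMIs on day 1, 10.7% and 33.8% on day 2 and 41.7% on day 4. Within it Myoc was at 146 and 192, 249 and 684, and 324 CPM, unscaled. The Sult1e1 cluster held the largest part, at 53.1% and 49.7%, 61.2% and 62.8%, and 51.6% of the UMIs. There Myoc was at 100.5 and 90.3, 159 and 422, and 107 CPM, unscaled.

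Car3 and Cfd, both abundant in fat cells, rose through a handful of cells. Car3, carbonic anhydrase 3, was at 3.67 and 1.66 CPM on day 1, 34.3 and 24.6 on day 2 and 67.0 on day 4 (log2 3.41, SE 0.35, adjusted p = 0.0369 on day 2; log2 4.61, SE 0.39, adjusted p = 0.0165 on day 4). Its UMIs lay in 9 of 3095 and 12 of 2832 cells on day 1, 10 of 722 and 8 of 1186 on day 2 and 22 of 2306 on day 4. Cfd (adipsin), which passed in both comparisons but under the mean level set for named genes and was picked after its values were seen, had UMIs in 2, 0, 4, 5 and 12 cells. The fat cell genes Adipoq or Plin1 were found in 1 and 0 cells of the class on day 1, 7 and 5 on day 2 and 14 on day 4. Without those cells Car3 was at 0.571 and 1.70 CPM on day 1, 3.74 and 1.97 on day 2 and 1.13 on day 4, unscaled, and it no longer passed. The refit without them called 4 genes on day 2 and 0 on day 4. Ifi27l2a, Plac8 and Myoc kept their calls on day 2 (log2 2.58, 2.14 and 2.77), and the day 4 difference of Ifi27l2a was 1.71 and no longer passed. A single cell held 239 of the 1638 Ifi27l2a UMIs of day 4.

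**Figure D3:**
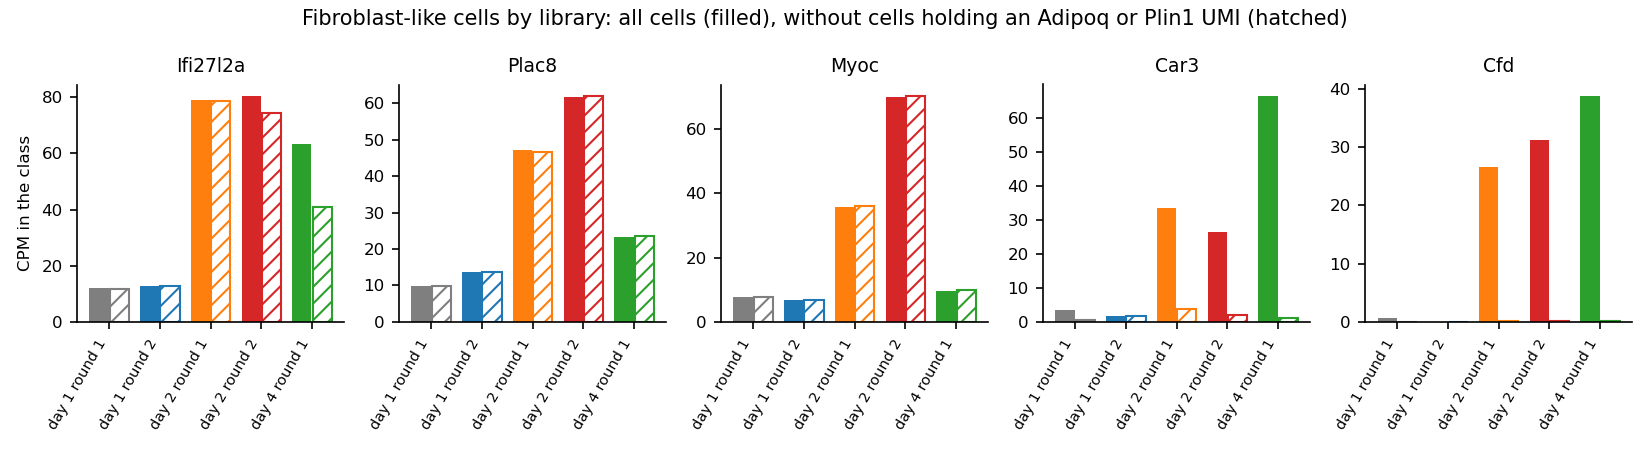
Level of 5 genes in fibroblast-like cells of each library, in CPM of the class without TMM scaling. Filled bars are all cells and hatched bars leave out cells with an Adipoq or Plin1 UMI; Ifi27l2a, Plac8 and Myoc hardly move on day 2 between the 2, while Car3 and Cfd nearly vanish.

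With hashed mice in place of libraries, 275 of 9553 genes (2.88%) passed in fibroblast-like cells between day 2 and day 1, 158 of them higher (1.65%) and 117 lower (1.22%). Between day 4 and day 1 622 passed (6.51%), 337 higher (3.53%) and 285 lower (2.98%). Between the 2 day 2 libraries 822 passed (8.6%), 405 higher (4.24%) and 417 lower (4.37%) in round 2. The mice did not overlap for 6.8%, 25% and 22.3% of genes in these 3 comparisons. Between the day 2 libraries, 21.1% of the day 2 calls and 23.3% of the day 4 calls passed too, against 8.6% of all genes. The mice of day 1 are 1 library and those of day 4 another, so day and library cannot be told apart in these calls.

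Pdia5, a protein disulfide isomerase that folds proteins in the endoplasmic reticulum, differed between day 1 and both libraries of day 2. It was at 6.96, 8.72 and 6.19 CPM in the day 1 mice, at 25.7, 28.2 and 21.5 CPM in day 2 round 1, at 19.7, 19.9, 21.9 and 24.4 CPM in day 2 round 2, and at 26.8, 29.9, 26.1 and 28 CPM on day 4. All mice of day 1 lay below all others (log2 1.79, SE 0.202, adjusted p = 0.000399 on day 2; log2 2.04, SE 0.202, adjusted p = 0.000188 on day 4), and the day 2 libraries differed by -0.16 (SE 0.158, adjusted p = 0.842). In whole libraries it was at 14.3 and 11.3 CPM on day 1, 23.3 and 21.5 on day 2 and 27.4 on day 4, so the rise was smaller there but had the same order. Fkbp11 (log2 1.32 on day 2), another folding enzyme, and Serpinh1, the collagen chaperone (0.57 on day 2 and 0.74 on day 4), rose too, as did Pcolce, which promotes removal of the collagen propeptide (1.08 on day 4), and decorin, Dcn (0.83 on day 4). Il11ra1, the interleukin-11 receptor (1.75), and the chemokine Ccl19 (1.46) rose on day 2. Thbs1 (-1.25) and Slit2 (-1.39) fell on day 2, the glycolytic enzyme Hk2 (-0.80), the basement membrane collagen Col4a1 (-1.12) and Ackr1 (-1.16) fell on day 4, and Ndrg1 fell on both days (-0.73 and -0.70).

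Other fibroblast genes, Ccl8, Timp1 and Col1a1, differed at least as much between the day 2 libraries as between day 4 and day 1. Ccl8, a chemokine for monocytes, was at 162, 211 and 98.7 CPM in the day 1 mice, 137, 196 and 63.3 in day 2 round 1, 451, 1060, 788 and 917 in day 2 round 2 and 611, 754, 594 and 1270 on day 4. The difference was 2.42 (SE 0.398, adjusted p = 0.00241) between day 4 and day 1 and 2.65 (SE 0.395, adjusted p = 0.00286) between the day 2 libraries. The metalloproteinase inhibitor Timp1 had the same form, with log2 1.80 (SE 0.403, adjusted p = 0.0151) by day and 2.37 (SE 0.399, adjusted p = 0.0036) by library. Col1a1, the main chain of type I collagen, did not pass between day 4 and day 1, where the mice overlapped between 34100 and 38600 CPM, but stood at 51700, 39600 and 57800 CPM in day 2 round 1 against 16500, 8480, 9970 and 24200 CPM in round 2 (log2 -1.75, SE 0.265, adjusted p = 0.00286). In whole libraries Col1a1 was at 62330 and 37900 CPM on day 1, 42610 and 17670 on day 2 and 35230 on day 4, unscaled. Wfdc12, a protease inhibitor, was at 8.71, 6.54 and 23.4 CPM on day 1 and between 29.0 and 60.7 CPM in all 7 mice of day 2. On day 4 it was at 102, 278, 163 and 55.5 CPM (log2 3.15, SE 0.517, adjusted p = 0.00241 against day 1). Between the day 2 libraries Wfdc12 differed by only -0.466 (SE 0.446, adjusted p = 0.572, edgeR over mice). Fibroblast cluster 9, which expresses Ccl19, C3 and Wfdc12, was 13.6% and 9.50% of the class on day 1, 10.7% and 23.7% on day 2 and 30.5% on day 4, and it held 60.6% of the Ccl8 UMIs in day 2 round 2 and 61.3% on day 4. Within cluster 9 Ccl8 was at 182.5 and 225 CPM on day 1, 212 and 1588 on day 2 and 1178 on day 4, unscaled. In the cluster led by Col1a1 it was at 108 and 85.2, 52.5 and 523, and 396 CPM. In the Sult1e1 cluster its days overlapped, at 329 and 166, 181 and 318, and 249 CPM. For the genes given here only as sums over the class, fewer cells of a kind and less RNA per cell cannot be told apart.

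No gene passed in dendritic cell-like cells over the 5 libraries (0 of 11388, 0%, on day 2 and on day 4, edgeR), although 825 and 639 genes had an unadjusted p under 0.05, and DESeq2 called 63 and 5. Without day 2 round 1 more genes passed, but that fit takes its spread from the day 1 pair alone. Over mice, 417 of 8754 genes (4.76%) passed on day 2, 154 higher (1.76%) and 263 lower (3%), and 1046 (11.9%) on day 4, 471 higher (5.38%) and 575 lower (6.57%). Between the day 2 libraries 1517 passed (17.3%), 652 higher (7.45%) and 865 lower (9.88%) in round 2. The mice did not overlap for 4.42%, 23.8% and 28.8% of genes. Between the day 2 libraries, 50.8% of the day 2 calls and 50.4% of the day 4 calls passed too, against 17.3% of all genes. The mice of day 1 are 1 library and those of day 4 another, so day and library cannot be told apart in these calls. C1qc, a chain of complement C1q, was at 3.67, 11.1 and 2.98 CPM in the day 1 mice, 4.18, 14.3 and 25.8 in day 2 round 1, 52.7, 39.8, 53.4 and 13.4 in day 2 round 2, and 63.2, 68.4, 83.7 and 54.5 CPM on day 4. The day 4 mice lay above all others (log2 3.23, SE 0.498, adjusted p = 0.00124 against day 1). The day 1 round 1 library stood at 35.0 CPM against 7.11 CPM in round 2, so the rise to the 65.0 CPM of the day 4 library was smaller from there. C1qb, C1qa and complement factor B, Cfb, rose by 3.02, 2.47 and 2.79, and 5 of the 11 complement genes tested over mice passed as higher on day 4 and 0 as lower. The 11 macrophage markers, C1q genes among them, summed to 7537 and 8032 CPM in the dendritic class on day 1, 8722 and 5510 on day 2 and 8915 on day 4; their part in the result was not tested.

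Of the interferon-gamma response list, 7 of 14 genes passed as higher on day 4 in the same cells, where 5.38% of all genes did. Gbp2, a guanylate-binding protein, was at 24.7, 25.8 and 32.7 CPM on day 1, 10.4, 57.3 and 37.5 in day 2 round 1, 105, 32.4, 72.1 and 102 in day 2 round 2, and 209, 81.3, 130 and 169 CPM on day 4 (log2 2.48, SE 0.434, adjusted p = 0.00254 for day 4). The mice of day 4 and day 1 did not overlap. Hmox1, the enzyme that breaks down haem, fell, from 980, 796 and 548 CPM on day 1 and 635, 777 and 755 CPM in day 2 round 1 to 82.2, 48.6, 36.1 and 78.8 CPM in day 2 round 2 and 152, 104, 98.8 and 93.3 CPM on day 4. That is a log2 difference of -2.80 (SE 0.238, adjusted p = 1.12e-05) between day 4 and day 1 and of -3.51 (SE 0.25, adjusted p = 3.55e-07) between libraries of the same day. Timd4, a receptor for dying cells, followed the same libraries (log2 -2.93, SE 0.413, adjusted p = 0.000704 by day; -2.57, SE 0.441, adjusted p = 0.000814 by library). The stress-response genes Trib3, Ddit3 and Aars fell by 4.10, 1.34 and 1.72 on day 4. The maturation genes Cd83, Cd40 and Cd86 fell by 0.71, 0.69 and 0.52, and Cd83 and Cd86 also differed between the day 2 libraries (-0.83 and -0.76). Ccl17, a chemokine for T cells, was at 97.1, 133 and 164 CPM on day 1, 56.4, 32.2 and 24.6 in day 2 round 1, 1050, 1420, 1130 and 1060 in day 2 round 2 and 315, 329, 168 and 265 on day 4. It differed by 1.09 (SE 0.24, adjusted p = 0.00855) between days and by 5.01 (SE 0.302, adjusted p = 5.07e-08) between the day 2 libraries.

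**Figure D4:**
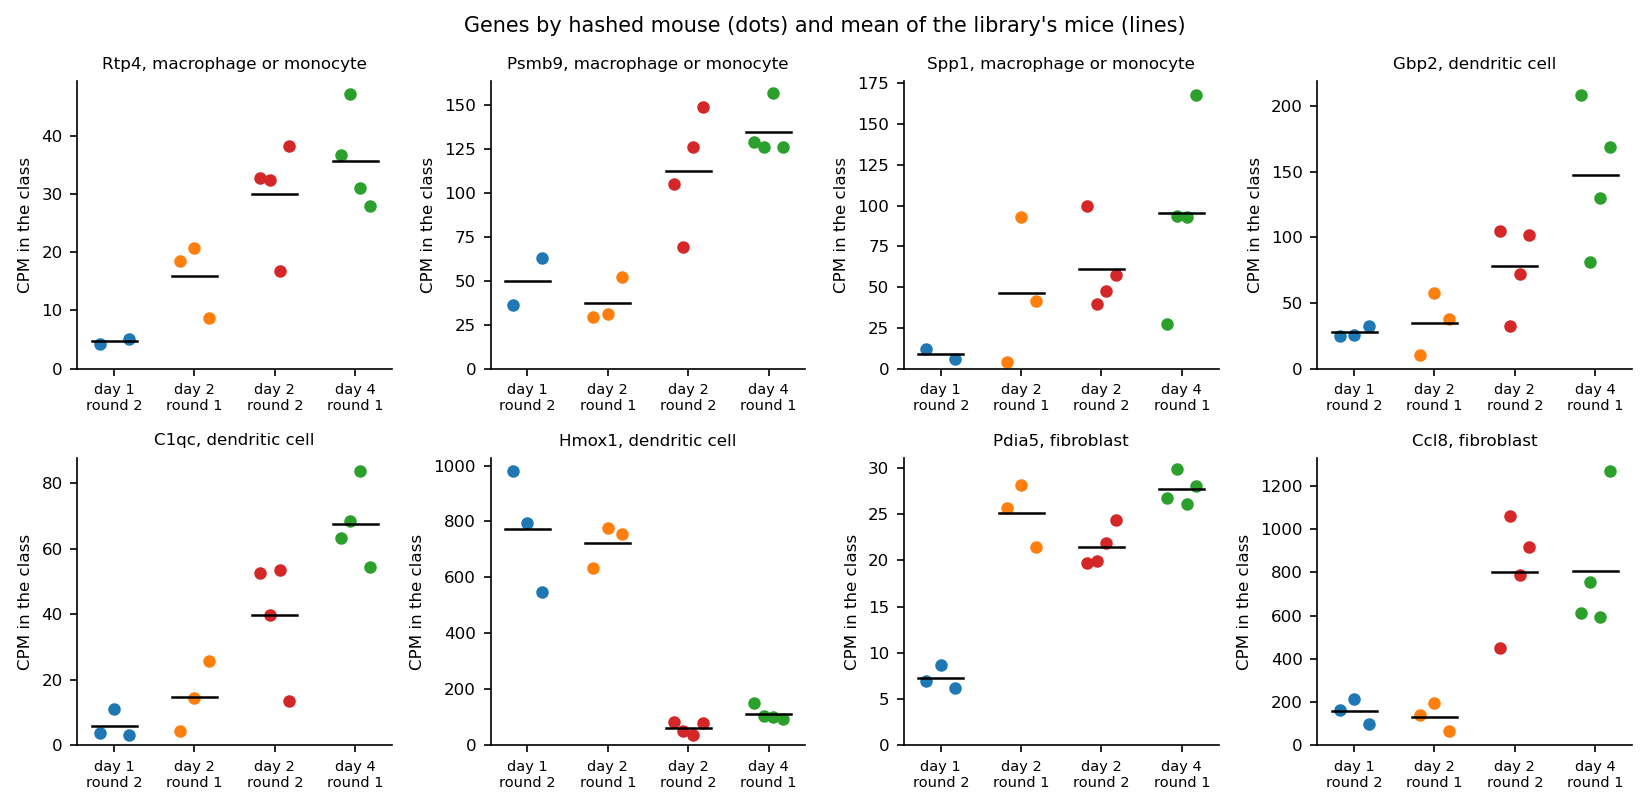
Level of 8 genes per hashed mouse (dots) and the mean over the mice of a library (lines), in CPM of the class. Rtp4 and Pdia5 have all mice of day 1 below all others, whereas Hmox1 and Ccl8 separate day 1 and day 2 round 1 from day 2 round 2 and day 4.

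In macrophage or monocyte-like cells no gene passed over libraries (0 of 10933, 0%, on both days, edgeR; 591 and 308 at an unadjusted p under 0.05; DESeq2 called 7 and 4). Some passed without day 2 round 1, with the spread taken from the day 1 pair alone. Over the 13 mice with at least 20 such cells, 131 genes were called higher (1.62%) and 176 lower (2.18%) on day 2, and 152 higher (1.89%) and 177 lower (2.2%) on day 4. Between the day 2 libraries, 47.2% of the day 2 calls and 55.9% of the day 4 calls passed too, against 17.6% of all genes. The mice of day 1 are 1 library and those of day 4 another, so day and library cannot be told apart in these calls. Several interferon-induced genes were among the rises. Rtp4, a chaperone for receptors, was at 4.27 and 5.07 CPM on day 1, 18.5, 20.7 and 8.65 in day 2 round 1, 32.7, 32.4, 16.8 and 38.2 in day 2 round 2 and 36.7, 47.2, 31.0 and 28 CPM on day 4. Every mouse of days 2 and 4 lay above both of day 1 (log2 2.18, adjusted p = 0.0112 on day 2; log2 2.91, SE 0.403, adjusted p = 0.00469 on day 4). Isg15, a ubiquitin-like protein, rose by 1.41 on day 2, and Irf7, Xaf1, Ifi47, Gbp7 and the immunoproteasome subunit Psmb9 rose by 2.02, 2.38, 2.44, 1.42 and 1.40 on day 4. Between the day 2 libraries Rtp4 differed by 1.05 (adjusted p = 0.049), Psmb9 by 1.49 (adjusted p = 0.00414), Irf7 by 2.56 and Xaf1 by 1.90, all higher in round 2. Round 2 of day 2 is also the library where the recruited type made up 46.6% of this class.

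Of the 9 inflammatory cytokine and prostaglandin genes tested over mice in the same class, 2 passed as lower on day 2, where 2.18% of all genes did, and 0 as higher. The cytokines Il6 and Il1a fell by 2.24 and 2.31 on day 2, as did Gdf15 (3.03), the adhesion molecule Vcam1 (2.55) and the fatty acid carrier Fabp4 (2.38). Mt2, a metallothionein that binds zinc, was at 325 and 487 CPM on day 1, 385, 346 and 329 in day 2 round 1, 55.6, 53.6, 58.8 and 160 in day 2 round 2 and 182, 70.4, 98.4 and 115 CPM on day 4 (log2 -1.78, SE 0.37, adjusted p = 0.0187 on day 4; -2.09, SE 0.359, adjusted p = 0.00174 between the day 2 libraries). Spp1, osteopontin, rose from 11.8 and 5.79 CPM on day 1 to 27.4, 93.5, 92.9 and 168 CPM on day 4 (log2 3.43, SE 0.795, adjusted p = 0.0276). With only 2 mice on day 1, these calls rest on few values: without the first day 1 mouse 29 genes passed on day 2 and 7 on day 4.

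The ligand, receptors and targets of interferon signalling were read in that order. Ifng was at 1.05 and 14.8 CPM over all immune cells on day 1, 7.0 and 15.3 on day 2 and 4.40 on day 4, unscaled. NK or innate lymphoid cell-like cells held 3 of its 12 and 113 of its 153 UMIs on day 1, 27 of 31 and 209 of 219 on day 2 and 26 of 63 on day 4. Per mouse Ifng stood at 5.21, 15.6 and 64.3 CPM on day 1, between 0 and 45.6 CPM on day 2, and at 6.98, 2.73, 5.05 and 2.50 CPM on day 4, so the days overlapped. Ifnb1 had 2 and 4 UMIs in all immune cells on day 1, 19 and 19 on day 2 and 10 on day 4. The Ifna genes had 0 or 1 UMI in each library. These values come from UMIs of few cells and were not tested.

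The 4 receptor chains had their highest levels in macrophage-like cells in day 2 round 2 and on day 4. Ifngr1 was at 68.2 and 75.7 CPM on day 1, 75.2 and 203 on day 2 and 140 on day 4, and Ifngr2 at 47.9 and 67.2, 57.0 and 101, and 88.2 CPM. Ifnar1 was at 52.8 and 83.8 CPM on day 1, 68.2 and 137 on day 2 and 124 on day 4, and Ifnar2 at 163 and 170, 148 and 229, and 193 CPM. For these genes both libraries with high levels of the response lists stood above the other 3. None of them passed over libraries, where no gene of this class did. The recruited type made up 4.01% and 4.02% of this class on day 1, 3.85% and 46.6% on day 2 and 8.93% on day 4. Its part in the receptor levels was not tested. The response lists of this class below are summed over the same mix of cells.

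Of the 16 interferon-gamma response genes tested in macrophage-like cells, all 16 were higher on day 4 than on day 1, with a median log2 difference of 1.34 against -0.02 over all genes. Their summed level was 519 and 540 CPM on day 1, 595 and 1227 on day 2 and 1365 on day 4. For 15 of them the day 4 library lay above the day 1 pair, where 70.5% of all genes lay outside that pair in either direction. Between day 2 and day 1 that share was 35.2%. Day 2 round 1 stood beside day 1 and day 2 round 2 beside day 4. Over mice 4 of 16 passed as higher, against 1.89% of all genes. In dendritic cell-like cells the sum was 627 and 616 CPM on day 1, 736 and 1189 on day 2 and 1292 on day 4 (16 of 16 higher, median 1.09, and 7 of 14 passed over mice against 5.38% of all genes), and the day 4 library lay above the day 1 pair for 14 of 16, against 75.7% of all genes outside that pair (37.8% for day 2). In fibroblast-like cells it was 703 and 735, 694 and 1416, and 1269 CPM (14 of 16 higher, median 0.99); over mice the median was 0.30 and 0 of 15 passed, where 3.53% of all genes did. In basal keratinocyte-like cells it was 358.6 and 309.4, 568.1 and 582.5, and 691 CPM (12 of 12 higher, median 1.41).

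The type I list was likewise higher in macrophage-like cells, with 920 and 534 CPM on day 1, 686 and 1424 on day 2 and 1454 on day 4 (18 of 19 higher on day 4, median 1.68, and 8 of 17 passed over mice against 1.89% of all genes). Endothelial and pericyte-like cells showed smaller medians on day 4, of 0.41 and 0.12 for the interferon-gamma list and 0.75 and 0.21 for the type I list. Endothelial-like cells, which had the highest interferon-gamma list level at every time, went from 3874 and 3247 CPM on day 1 to 3269 and 3487 on day 2 and 4012 on day 4. For 10 of 15 genes its day 4 library lay above the day 1 pair, against 67.3% of all genes outside that pair (31.4% for day 2). No gene passed in that class over libraries (0 of 9956, 0%, on both days, edgeR; 367 and 236 at an unadjusted p under 0.05; DESeq2 called 0 and 0). Some passed without day 2 round 1, with the spread taken from the day 1 pair alone. The chemokine Cxcl9, a textbook target of interferon-gamma, was at 4.19 and 6.47 CPM in fibroblast-like cells on day 1, 7.64 and 98.4 on day 2 and 41.7 on day 4, and at 13 and 24.2, 29.8 and 140, and 93.8 CPM in dendritic cell-like cells, unscaled.

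**Figure D5:**
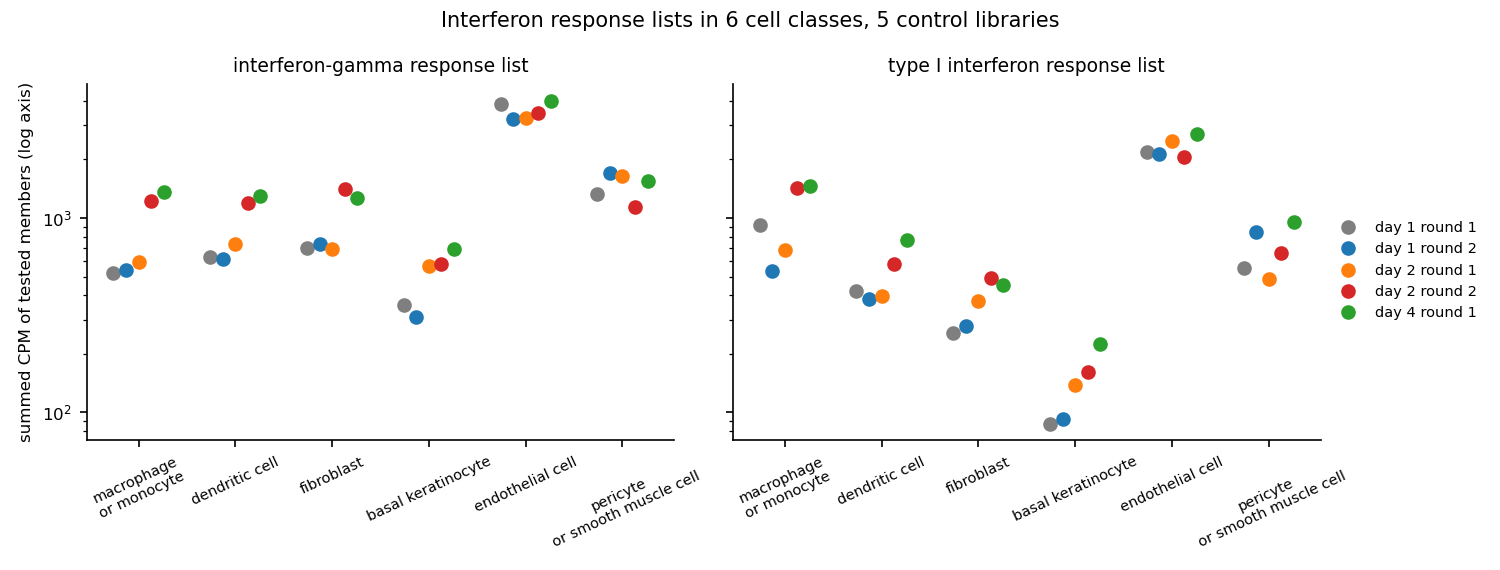
Summed level of the tested genes of 2 interferon response lists in 6 cell classes, in CPM on a log axis, with 1 dot per library. In macrophage, dendritic and fibroblast-like cells the dots of day 1 and day 2 round 1 lie together below those of day 2 round 2 and day 4 for the interferon-gamma list, while in endothelial and pericyte-like cells no such gap is seen.

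The promoters of 3 of these genes are shown because the 2 interferon pathways are known to act through short motifs near the start of transcription. Each is the 250 bases before the start, from RefSeq on GRCm38.p6 and written on the gene's own strand. Capitals mark the core of the interferon-stimulated response element, which is TTTC, any 2 bases and TTTC again, and the gamma-activated site, TTCNNNGAA. Both were searched on both strands, and overlapping matches are written as 1 run.
Isg15, chr4:156200819-156201068, minus strand: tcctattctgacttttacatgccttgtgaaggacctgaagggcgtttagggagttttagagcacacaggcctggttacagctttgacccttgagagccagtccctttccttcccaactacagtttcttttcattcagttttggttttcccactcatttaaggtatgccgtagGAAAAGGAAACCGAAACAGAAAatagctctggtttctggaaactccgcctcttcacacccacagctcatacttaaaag
Gbp7, chr3:142530086-142530335, plus strand: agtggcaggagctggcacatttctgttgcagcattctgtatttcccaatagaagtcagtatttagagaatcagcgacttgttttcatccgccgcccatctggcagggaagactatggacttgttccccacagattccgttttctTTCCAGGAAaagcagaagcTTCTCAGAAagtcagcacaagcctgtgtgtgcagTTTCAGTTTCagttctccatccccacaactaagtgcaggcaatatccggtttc
Cxcl10, chr5:92348890-92349139, minus strand: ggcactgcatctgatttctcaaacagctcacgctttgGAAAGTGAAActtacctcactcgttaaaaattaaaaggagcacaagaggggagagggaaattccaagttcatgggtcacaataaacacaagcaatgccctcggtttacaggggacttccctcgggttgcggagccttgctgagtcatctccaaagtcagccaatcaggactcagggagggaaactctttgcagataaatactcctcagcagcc
Of the 17 genes of the interferon-gamma list 13 had a promoter in the table, with 15 promoters in all, and the response element was in 8 of them (53.3%). For the type I list it was in 9 of 15 promoters of 14 genes (60%), against 2.98% of all 32851 promoters. TTCNNNGAA was in 40% and 20% of these promoters and in 7.02% of all. A match is a stretch of letters and was not tested as a binding site.

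The basal keratinocyte-like class had 49 cells in day 2 round 1, 1 under the minimum set, and was added after its size was seen. On day 2, 11 genes rose (0.0912%) and 116 fell (0.962%) of 12064 (1.05% together), and on day 4 5 rose (0.0414%) and 3 fell (0.0249%; 0.0663% together). The library values of the days did not overlap for 44.7% of genes on day 2 and 74.4% on day 4. Without day 2 round 2, which leaves those 49 cells as the only day 2 sample, 0 genes passed on day 2. Birc5 and Ube2c, which act in mitosis, rose by 1.93 (SE 0.39, adjusted p = 0.0371) and 1.78 (SE 0.38, adjusted p = 0.0494) on day 2. In day 2 round 1 each rests on 7 UMIs, in 2 of 49 cells for Birc5 and in 5 for Ube2c. Of the 20 cell cycle genes tested 18 were higher on day 2, with a median of 0.95 against 0.00 over all genes. Their sum was 654 and 601 CPM on day 1, 1061 and 911 on day 2 and 729 on day 4. Il11ra1 rose here too, from 85.7 and 51.8 CPM to 200 and 157 CPM (log2 1.35, SE 0.28, adjusted p = 0.0414), and was at 72.1 CPM on day 4.

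Of the 14 wound keratin and activated keratinocyte genes tested, 11 were lower on day 2 (median -0.92 against 0.00 over all genes) and 1, Sprr1a, passed as lower, where 0.962% of all genes did. Sprr1a, a cornified envelope protein that keratinocytes express in wounds, went from 183 and 166 CPM on day 1 to 75.4 and 28.4 on day 2 and 159 on day 4 (log2 -2.04, SE 0.37, adjusted p = 0.0212 on day 2). Klk7, a protease of the shedding outer layer, went from 90.7 and 88.5 CPM to 2.36 and 7.97 and then 24.2 CPM (log2 -3.64, SE 0.32, adjusted p = 0.000361). Fscn1, which bundles actin in moving cells, went from 83.5 and 86.7 CPM to 7.07 and 11.0 and then 46.8 CPM (log2 -3.03, SE 0.29, adjusted p = 0.000494). For all 3 the day 4 library lay between days 1 and 2. Collagen transcripts fell in the same cells, with Col1a1 at 2744 and 917 CPM on day 1, 198 and 57.9 on day 2 and 194 on day 4. The 10 fibroblast markers, all detected in this class, summed to 8144 and 2897, 619 and 446, and 901 CPM. The 10 hair follicle markers summed to 5144 and 4805, 2542 and 3441, and 3959 CPM, and the 8 suprabasal markers to 1867 and 1655, 1056 and 2062, and 1467 CPM. The Krt15 cluster made up 62% and 54.5% of the class on day 1, 38.8% and 52.1% on day 2 and 51.2% on day 4. Klk7 and Sprr1a were also leading genes of the suprabasal cluster. The part of these in the falls was not tested.

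On day 4 the antigen-presentation chain Cd74 rose in basal keratinocyte-like cells, from 30.2 and 42.8 CPM on day 1 through 77.8 and 76.7 on day 2 to 135 (log2 1.88, SE 0.28, adjusted p = 0.0334). Day 4 is 1 library, so here, as in the other classes, the test over libraries takes its spread from days 1 and 2 alone and assumes that day 4 varies like them. Cxcl9 was at 0.724 and 1.12 CPM on day 1, 2.36 and 10.3 on day 2 and 27.7 on day 4 (log2 3.2, SE 0.56, adjusted p = 0.0176 on day 2; log2 4.84, SE 0.53, adjusted p = 0.00378 on day 4). It lay in 1 and 5 cells on day 1, 1 and 11 on day 2 and 17 on day 4. Krt35, a keratin of the hair shaft, fell, from 68.3 and 59.8 CPM on day 1 to 0 on day 2 and 2.00 on day 4 (log2 -4.98, SE 0.44, adjusted p = 0.00161 on day 4). Against 3 counts over both day 2 libraries it was at least 102-fold lower there. A single cell carried all 283 of its UMIs in day 1 round 1, and another carried 246 of the 267 UMIs in round 2, so this call rests on 2 cells.

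In pericyte or smooth muscle-like cells 1 gene of 9095 passed, and it fell on day 2 (0.011%; edgeR; 748 at an unadjusted p under 0.05), while the days' values did not overlap for 39.7% of genes on day 2 and 66.3% on day 4. It was Ctla2a, an inhibitor of cysteine proteases, at 107 and 99.3 CPM on day 1, 2.68 and 6.89 on day 2 and 36.2 on day 4 (log2 -4.16, SE 0.41, adjusted p = 0.00963). Its UMIs lay in 10 and 20 cells on day 1, 1 and 7 on day 2 and 21 on day 4. No gene passed there on day 4 (0 of 9095, 0%, edgeR; 348 at an unadjusted p under 0.05; DESeq2 called 0). Without day 2 round 1 more genes passed on day 2, with the spread taken from the day 1 pair alone. Endothelial-like cells had far more Ctla2a, between 998 and 2420 CPM. The 8 endothelial markers, all detected in the pericyte class, summed to 209 and 285 CPM on day 1, 37.8 and 116 on day 2 and 218 on day 4; their part in the fall was not tested.

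Other lists are described by their counts and medians between day 4 and day 1, for a part of the tested classes. Day 4 is 1 library, so day and library cannot be told apart in these lists. Of the clock genes, which keep daily time, 15 of 16 tested were lower on day 4 in fibroblast-like cells (median -0.59), 13 of 15 in macrophage-like (-0.56), 13 of 14 in dendritic (-0.53) and 16 of 16 in basal keratinocyte-like cells (-0.48), while the medians of all genes lay between -0.02 and -0.01. The hour at which skin was taken is not given in the sources used here. Metallothionein and zinc transporter genes were lower in 6 of 6 cases in macrophage-like cells (-0.97) and in 5 of 6 in dendritic cell-like cells (-0.67). Mt2, a member, differed over mice by -1.78 between these days in macrophage-like cells and by -2.09 between the day 2 libraries. MHC class II genes, which show antigen to T cells, were higher in 7 of 7 cases in macrophage-like cells (1.10) and in 6 of 6 in basal keratinocyte-like cells (1.00), and in 4 of 8 in dendritic cell-like cells (0.10). Respiratory chain subunits passed over mice as higher on day 4 in 9 of 18 cases in fibroblast-like cells, 8 of 18 in dendritic and 5 of 18 in macrophage-like cells, where 3.53%, 5.38% and 1.89% of all genes did, and none of these subunits passed as lower.

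The change from day 1 to day 4 was set against the change in expanded skin over the same days, in all 10 libraries. In fibroblast-like cells 2 of 13979 genes (0.0143%) differed, and both were far higher on day 4 than on day 1 in expanded skin. Cxcl13, a chemokine for B cells, was at 21.6 and 21.3 CPM on day 1, 61.2 and 19.8 on day 2 and 6.13 on day 4 in control skin, and at 0.704 and 0.217, 18.7 and 6.95, and 277 CPM in expanded skin. The control change minus the expanded change was -10.72 on the log2 scale (SE 1.06, adjusted p = 0.00909). Crybb3, a crystallin, stayed between 1.73 and 3.32 CPM in all 5 control libraries and reached 118 CPM on day 4 in expanded skin (-5.06, SE 0.49, adjusted p = 0.00909). Each day 4 arm is 1 library, so these differences rest on 1 library. On day 4 the fibroblast-like class held 127 cells in expanded skin and 2306 in control skin. Cxcl13 is also a leading gene of the Sult1e1 cluster of fibroblasts, and the part of class make-up was not tested. In macrophage-like cells 0 of 11625 genes (0%) differed (edgeR; 164 at an unadjusted p under 0.05; smallest adjusted p 0.125). The median day 4 difference of the interferon-gamma list was 1.36 in control and 1.21 in expanded macrophages, and that of the type I list 1.69 and 1.81. In fibroblast-like cells it was 0.986 in control and 0.365 in expanded skin for the interferon-gamma list, and 0.747 and -0.28 for the type I list. The control change was the higher for 11 of 15 and for 15 of 18 of these genes. No gene of either list passed as different between the arms in macrophage or fibroblast-like cells.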

How the data were processed

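Mouse skin cells were profiled by droplet 3' single-cell RNA sequencing. Per the submitters' processing notes Cell Ranger 6.1.2 and the mm10 genome were used; the deposited files hold whole-number UMI counts per gene and cell, and hashtag counts per cell, with no normalization by the authors. Barcodes under 200 genes or 500 UMIs, or over 10% in mitochondrial UMIs, were dropped, and doublets were removed by Scrublet at an expected rate of 0.008 per 1000 cells and by hashtag. All 10 libraries were clustered together with scanpy 1.11.5 (2000 variable genes, 30 components, 15 neighbours, Leiden resolution 1), and clusters were named "-like" from marker lists. Mice were assigned with HTODemux of Seurat 5.3.0 at quantile 0.99.

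Counts were summed per class and library (at least 50 cells) or mouse (at least 20 cells) and tested with edgeR 4.0.16 (quasi-likelihood, TMM, low counts filtered, Benjamini-Hochberg adjusted p under 0.05). CPM values are scaled by TMM unless called unscaled, except for sums of cell type markers, which are unscaled. The gene test was tested on simulated counts first. Shares over mice were compared by exact two-sided permutation tests. Nothing in the labels says that the 2 rounds of a day are separate experiments, so p-values over libraries measure the spread between these libraries only. Intervals and limits cover counting error only.

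Named genes over libraries passed the test, had a mean of at least 20 CPM and days that did not overlap (up to 6 per direction), or were called members of a list (up to 4 per list). The genes given per mouse were chosen after their values were seen, and the members and all lists were chosen with earlier results of these data known. Another scaling, no filter, DESeq2 1.42.0, the round as a block, thinned cells, mice as replicates, a second hashtag rule and each library or mouse left out were tried. Versions of R and Python were 4.3.3 and 3.11.15. Some items are not reported here.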

Additional observations from a re-analysis of the deposited data

Results flagged for a closer look

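In 4 of 87 groups of mice looked at, 1 mouse stood apart from the others of its library by Dixon's test, and chance alone flags about 1 group in 20. In day 2 round 2, mouse 4 had 14.6% recruited-type cells among its macrophage or monocyte-like cells, where the next lowest mouse had 57.8%. The same mouse had 160 CPM of Mt2 in that class, where the next highest had 58.8 CPM. On day 4, mouse 1 had 577 CPM of Cd209f in macrophage or monocyte-like cells against 286 CPM in the next, and mouse 3 had 157 CPM of Psmb9 against 129 CPM in the next.

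The change from day 1 to day 4 in fibroblast-like cells differed between control and expanded skin for 2 genes, by the test of that difference over 10 libraries (edgeR). Control minus expanded was -5.06 on the log2 scale for Crybb3 and -10.72 for Cxcl13, with an adjusted p of 0.00909 for each. Each arm has 1 library on day 4, with 127 fibroblast-like cells in expanded and 2306 in control skin.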

How the results depend on the processing

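Counts of genes past the threshold depended strongly on the processing, and each pair below is day 2 then day 4 against day 1. Over libraries, leaving out the filter on low counts gave 281 and 163 genes in dendritic, 50 and 32 in endothelial, 553 and 465 in fibroblast, 188 and 90 in macrophage, 146 and 73 in pericyte and 506 and 176 in basal keratinocyte-like cells. DESeq2 gave 63 and 5 in dendritic, 132 and 78 in fibroblast, 7 and 4 in macrophage-like cells, 3 on day 2 in pericyte and 4 on day 4 in basal keratinocyte-like cells. RLE scaling gave 8 on day 4 in fibroblast-like cells. Thinning cells to 2000 UMIs gave 2 on day 2 in dendritic, 6 and 3 in endothelial, 25 and 16 in fibroblast and 16 and 4 in pericyte-like cells. Mice as replicates gave 417 and 1046 in dendritic, 275 and 622 in fibroblast and 307 and 329 in macrophage-like cells. The resident-type macrophage cluster alone gave 3 and 8. That cluster, the removal of cells with fat cell genes and the alternatives over mice were chosen after seeing the data.

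With the sequencing round as a replicate block, 175 and 192 genes passed in dendritic, 10 and 31 in endothelial, 411 and 580 in fibroblast, 118 and 182 in macrophage, 198 and 216 in pericyte and 540 and 310 in basal keratinocyte-like cells. For control minus expanded the block of day and round gave 4 in fibroblast and 1 in macrophage-like cells, and no filter gave 147 and 45. The labels do not tie the rounds of different days together. The rounds' deviations correlated at -0.141 in dendritic, 0.00567 in endothelial, 0.364 in fibroblast, 0.119 in macrophage, 0.294 in pericyte and 0.157 in basal keratinocyte-like cells over 2 pairs, which does not settle whether rounds of different days share anything.

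Leaving out 1 library at a time, the counts on day 2 ranged from 0 to 1322 in dendritic, 0 to 269 in endothelial, 2 to 144 in fibroblast, 0 to 381 in macrophage, 1 to 93 in pericyte and 0 to 209 in basal keratinocyte-like cells. On day 4 they ranged from 22 to 602, 4 to 114, 6 to 89, 0 to 22, 0 to 16 and 2 to 137 in the same order. The highest came without day 2 round 1 in all of these but the 2 basal keratinocyte counts and the pericyte count of day 4. That fit leaves 1 library on day 2 and 1 on day 4, so its spread comes from the day 1 pair alone. Leaving out a day 1 library likewise leaves only the day 2 pair. Leaving out 1 mouse at a time gave 117 to 382 and 257 to 999 in dendritic, 100 to 381 and 282 to 428 in fibroblast and 29 to 523 and 7 to 376 in macrophage-like cells. Between the day 2 libraries it gave 1002 to 1365, 166 (without day 2 round 1 mouse 1) to 1302, and 747 to 1703 in these classes. For control minus expanded, leaving out 1 library at a time gave 2 to 3 in fibroblast and 0 to 1 in macrophage-like cells. Over mice, no filter gave 768 on day 2 in dendritic and 600 and 585 in macrophage-like cells, and in fibroblast-like cells on day 2 DESeq2 gave 427 and the second hashtag rule 422.

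Of 440 refits of the 44 named results over libraries, 325 kept direction and call, 115 lost the call and 0 changed direction. All 44 were called and had days that did not overlap. Leaving out a library could therefore hardly change their direction. Over mice 1151 of 8881 refits lost the call. Interferon list medians changed sign in 9 of 248 refits of the day 2 and day 4 medians together, and all 9 were on day 2. Without day 2 round 2, the type I list was at -0.386 in dendritic and -0.113 in fibroblast-like cells, and the interferon-gamma list at -0.178 in endothelial and -0.034 in fibroblast-like cells. Over mice the type I list was at -0.032 in dendritic and -0.114 in fibroblast-like cells, and the interferon-gamma list at -0.0384 in fibroblast-like cells. In pericyte-like cells the type I list was at 0.00489 without day 2 round 1 and the interferon-gamma list at 0.184 without day 1 round 2. With 1 library left out at a time, these 6 medians ranged from -0.386 to 0.681 (type I, dendritic), -0.178 to 0.315 (gamma, endothelial), -0.113 to 0.884 (type I, fibroblast), -0.034 to 1.12 (gamma, fibroblast), -0.731 to 0.00489 (type I, pericyte) and -0.292 to 0.184 (gamma, pericyte). The macrophage share on day 4 was 2.5 points below day 1 (-2.5) with all assigned cells as denominator. The number of classes past the threshold was 0 in every fit of shares. Where a count or sign changed, the cause was not tested beyond what each alternative itself alters.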
